A study of Homo sapiens with 12 samples.

Results

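The sites described here are the cohesin sites of HAP1 cells that lack WAPL, sorted by what became of them once the cohesin loader subunit SCC4 was removed as well. The SMC1 peak list of ΔWAPL cells held 33952 peaks and that of ΔWAPL/ΔSCC4 cells held 26558. A ΔWAPL peak was called kept when a ΔWAPL/ΔSCC4 peak overlapped it by at least 1 bp and lost when none did, and a ΔWAPL/ΔSCC4 peak that overlapped no ΔWAPL peak was called new. By this rule 10680 ΔWAPL peaks were lost, 31.5% of the list, and 23272 were kept. Of the ΔWAPL/ΔSCC4 peaks, 3295 were new, 12.4% of that list, and 23263 matched a ΔWAPL peak. Together the lists gave 60510 of the 267921 peaks in the 12 libraries of the series.

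The series consists of chromatin immunoprecipitation with antibodies against SMC1 or CTCF, or with control IgG, in 4 genotypes of HAP1 cells, namely wild-type, ΔSCC4, ΔWAPL and ΔWAPL/ΔSCC4. HAP1 is a near-haploid human line that derives from a chronic myeloid leukaemia. The ΔWAPL line is a clone in which a resistance cassette was inserted into WAPL by CRISPR/Cas9, and ΔWAPL/ΔSCC4 cells were made from ΔWAPL cells by disrupting SCC4 in the same manner, so that WAPL was absent on both sides of the comparison. SCC4 is the product of the gene MAU2. Peak lists give no view of the edited exons, so the loss of either protein could not be checked from them. Each genotype was represented by 1 SMC1 library from 1 line. There was therefore no replicate, no test between genotypes was made, and the 95% Wilson intervals below cover counting error only.

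Cohesin is a ring-shaped complex, built around SMC1 and SMC3, that holds DNA together and forms chromatin loops. The SCC2/SCC4 complex loads it onto DNA, often near active promoters, and WAPL opens the ring and releases it. CTCF binds a long, directional DNA motif and marks the positions where cohesin most often comes to rest at loop anchors. A ΔWAPL peak was assigned to 1 of 4 classes. It was at CTCF when a CTCF peak called in the same cells shared at least 1 bp with it, and it was a promoter peak when its summit lay within 1 kb of an annotated transcript start, otherwise a distal peak.

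The kind of DNA that lay under these sites is shown first. Of the strongest sites at CTCF named below, 5 of 8 lost and 3 of 5 kept sites are printed, each with a match to the CTCF motif. These numbers are not match rates, since a site that is not printed may have a match too. The 29 bases around the best match of a learned 19-bp CTCF motif are given on the strand of the motif, with the motif in capitals. New peaks with a match are printed in the same way. Coordinates are hg19 (GRCh37), and each peak is named by the gene with the nearest start.

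The consensus of the learned motif, by its most frequent base at each position:
CTCF consensus: CCACCAGGGGGCGCTGGAG
Lost at CTCF, with SMC1 called in ΔWAPL and not in ΔWAPL/ΔSCC4:
GIPC1, chr19:14591022-14591050, minus strand: agcggCCAGCAGGTGGCGCCCAAGcctgg
TXLNG, chrX:16854715-16854743, minus strand: cacagCCAGCAGGGGGACGGGCCAtcccg
DDX11L16, chr16:61013-61041, minus strand: agctgCCAGCAGGCGGCGTGCCACcacta
PIP5K1C, chr19:3666015-3666043, plus strand: ggtggCCGCCAGGGGGCAGGCTCTcccca
MTUS2, chr13:29379530-29379558, plus strand: tgtggCCACCAGAGGGCGCTCCTTatgtt
Kept at CTCF, with SMC1 called in both:
LINGO1, chr15:77926003-77926031, plus strand: agtggCCAGCAGAGGGCAGCGCAGagcct
RNU6-1, chr15:68155914-68155942, plus strand: cgccgCCACCAGAGGGCGGCGGCTccgcg
FSIP2, chr2:186603736-186603764, minus strand: tgcggCCGCCAGAGGGCGACGCCGcccag
New, with SMC1 called in ΔWAPL/ΔSCC4 and not in ΔWAPL:
LIN28AP1, chr2:184159941-184159969, plus strand: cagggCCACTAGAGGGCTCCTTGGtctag
ENSG00000289475, chr13:57605002-57605030, minus strand: cagcgCGGCTAGGGGGCAGCATGGcttag
GRPEL2P1, chr13:89719311-89719339, minus strand: taataCCTCTAGGCGGCAGTGTTGcctaa
ENSG00000287284, chr2:19065548-19065576, plus strand: gggcaCCAGCAGGGGGAACCCTCCtacag
P3H2, chr3:189666419-189666447, minus strand: agtcaGCAGCAGAGGGCACTATTAgcata

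Of the 19 bases, the 5 lost sites shared 14, 11, 12, 11 and 14 with the consensus in the order printed, the 3 kept sites shared 13, 14 and 13, and the 5 new sites shared between 10 and 12. Over all sites at CTCF with a motif match, the mean was 11.8 bases at the 3368 lost, 12.2 at the 16236 kept and 11.4 at the 1427 new sites. All these sites had passed the same score threshold, so the means cannot show how far the motif differed between the sets. Within 50 bp of the ΔWAPL SMC1 summit, the motif was matched in 60.6% of lost and 73.2% of kept distal sites at CTCF. Around ΔWAPL/ΔSCC4 summits it was matched in 71.1% of kept and 51.8% of new ones. The median distance from SMC1 to CTCF summit was 32.5 bp at lost, 26.0 bp at kept ΔWAPL and 38.0 bp at new distal sites. The part of this distance in the match shares was not tested. The motif lay on the plus strand at 51.2% of lost and 50.7% of kept sites, so the sets did not differ in orientation beyond counting error.

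Promoters without CTCF formed the largest group of lost sites. The 100 bases upstream of the annotated start are shown for the strongest lost and kept peaks of this kind whose window overlapped no annotated untranslated region. They read 5′ to 3′ on the strand of the gene, and capitals mark the GC box GGGCGG, the binding word of Sp-family factors, on either strand.
Lost promoter LSM4, chr19:18433923-18434022, minus strand: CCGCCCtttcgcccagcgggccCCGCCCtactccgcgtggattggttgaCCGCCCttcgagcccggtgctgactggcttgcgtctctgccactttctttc
Lost promoter SEMA6A, chr5:115910520-115910619, minus strand: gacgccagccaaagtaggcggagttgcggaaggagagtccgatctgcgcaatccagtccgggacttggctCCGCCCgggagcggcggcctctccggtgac
Lost promoter ACSF3, chr16:89160160-89160259, plus strand: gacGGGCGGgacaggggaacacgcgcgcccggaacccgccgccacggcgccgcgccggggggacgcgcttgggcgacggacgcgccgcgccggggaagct
Kept promoter TOP3B, chr22:22337211-22337310, minus strand: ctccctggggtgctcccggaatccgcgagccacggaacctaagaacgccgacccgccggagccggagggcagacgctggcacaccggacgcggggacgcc
Kept promoter ENSG00000249483, chr5:81147320-81147419, plus strand: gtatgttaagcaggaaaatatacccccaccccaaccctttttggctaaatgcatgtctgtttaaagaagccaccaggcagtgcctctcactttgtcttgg
Kept promoter NCAM2, chr21:22370627-22370726, plus strand: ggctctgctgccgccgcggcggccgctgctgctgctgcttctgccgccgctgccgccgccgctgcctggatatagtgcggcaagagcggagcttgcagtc

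The window of LSM4 held 3 GC boxes, those of SEMA6A and ACSF3 held 1 each, and the 3 kept windows held none. This contrast did not extend to the sets. In the 301 bases around the summit, a GC box was found in 72.7% (95% interval 71.4 to 74.1) of lost and 75.9% (73.3 to 78.4) of kept promoter peaks without CTCF, against 54.1% of all protein-coding starts. The median GC content of the surrounding 1 kb was 63.9% at lost and 65.0% at kept promoters. The E-box CACGTG was found in 6.36% (5.66 to 7.15) of lost and 4.52% (3.45 to 5.92) of kept promoters and in 7.81% of all protein-coding starts. For each of the 9 words searched on both strands, the intervals of lost and kept promoters overlapped. The ETS core CCGGAAG was found in 12.6% and 13.6%, and the CCAAT box CCAAT in 17.2% and 17.1%.

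The first comparison concerned which ΔWAPL sites were no longer called in cells that also lacked SCC4. The lost share was higher where CTCF was absent, though 53.1% of all lost peaks were at CTCF. Of the 5237 promoter peaks without CTCF, 4132 were lost, or 78.9% (77.8 to 80.0), and of the 1014 distal peaks without CTCF, 882 were lost, or 87.0% (84.8 to 88.9). At CTCF, 1584 of 6395 promoter peaks were lost, or 24.8% (23.7 to 25.8), and 4082 of 21306 distal peaks, or 19.2% (18.6 to 19.7). In absolute numbers, distal CTCF sites and promoters without CTCF thus gave nearly the same number of lost peaks. The number of promoter peaks without CTCF came to 1393 in the ΔWAPL/ΔSCC4 list, of which 329 were new.

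Lost sites were also weak sites. The median fold enrichment, the reads at the summit over the local background, was 4.73 in lost and 7.48 in kept ΔWAPL peaks, and the median −log10 q was 6.0 against 16.4. When the ΔWAPL list was divided into 10 equal groups by −log10 q, 77.2% of the weakest and 0.0589% of the strongest peaks were lost. Within each class the lost share was lower in stronger peaks. For distal sites at CTCF it was 54.0% in the weakest group, 23.9% in group 5 and 4.28% in group 8, and for promoters without CTCF it was 89.6%, 61.4% and 23.7% in the same groups.

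**Figure D1:**
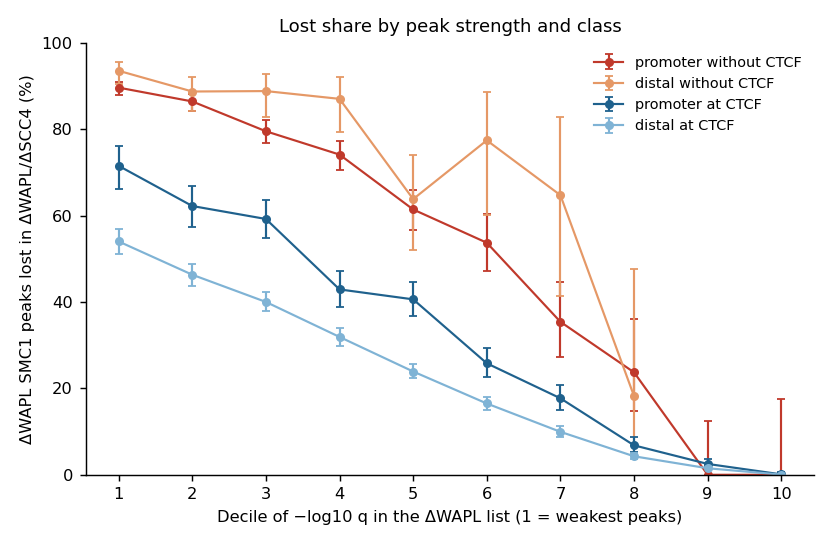
Share of ΔWAPL SMC1 peaks lost in ΔWAPL/ΔSCC4 cells (percent, y axis) by decile of −log10 q in the ΔWAPL list (x axis, 1 holds the weakest peaks), for the 4 classes; bars are 95% Wilson intervals and points with fewer than 10 peaks are left out. Promoters without CTCF lay above both classes at CTCF in deciles 1 to 8, and the share in distal sites at CTCF was 54.0% in decile 1 and 4.28% in decile 8.

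Peaks of the same strength were therefore compared. At the strengths of the promoter peaks without CTCF, 79.2% of these and 41.4% of distal sites at CTCF were lost. The gap was narrower when GC content was matched as well. When the comparison was restricted to peaks of the same decile and the same GC class of the surrounding 1 kb (under 40%, 40 to 50%, 50 to 60%, 60% and over), 78.9% of promoters without CTCF and 62.9% of distal sites at CTCF were lost. For distal peaks without CTCF the shares at equal strength and GC content were 87.0% and 53.3%. Promoters at CTCF, with 24.8% lost, stood at the level of distal sites at CTCF of equal strength and GC content, which was 25.5%. Without matching on strength, the lost share of distal sites at CTCF was 17.9%, 19.2%, 20.3% and 20.4% in the 4 GC classes, and that of promoters without CTCF was 82.0%, 80.3% and 78.1% in the 3 upper ones.

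CTCF remained at most of the lost CTCF sites, though at a smaller share than at kept ones. Of the 5666 lost peaks at CTCF, 5201 overlapped a CTCF peak in ΔWAPL/ΔSCC4 cells too, against 21922 of 22035 kept ones. The share was 92.7% at lost and 99.8% at kept distal sites, and 89.5% and 98.4% at promoters. The median CTCF fold enrichment in ΔWAPL cells was 10.0 at lost and 15.5 at kept sites. Where CTCF was called in both genotypes, the median ratio of depth-scaled CTCF summit reads, ΔWAPL/ΔSCC4 over ΔWAPL, was 1.06 at lost and 1.14 at kept sites. Depth-scaled reads here are summit reads divided by the lowest background of their list. When ΔWAPL sites at CTCF were divided into 5 groups by CTCF fold enrichment, the lost share was 49.5%, 24.9%, 13.8%, 8.68% and 5.42% from weakest to strongest. The median SMC1 fold enrichment went from 5.24 to 9.94 over the same groups, so the strengths of CTCF and SMC1 moved together. Of the 4132 lost promoters without a CTCF peak in ΔWAPL, 209 had 1 in ΔWAPL/ΔSCC4 cells, or 5.06%. Among the 1105 kept promoters of this kind it was 115, or 10.4%.

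Kept sites were largely those already present in wild-type cells. A wild-type SMC1 peak overlapped 69.1% (68.5 to 69.7) of kept and 11.5% (10.9 to 12.1) of lost ΔWAPL peaks. For promoters without CTCF these shares were 26.2% (23.6 to 28.8) and 5.83% (5.16 to 6.59), and for distal sites at CTCF they were 71.2% (70.5 to 71.9) and 16.4% (15.3 to 17.6). Most lost sites were thus called in ΔWAPL cells and in neither wild-type nor ΔWAPL/ΔSCC4 cells. When SCC4 was removed from wild-type cells, 77.9% (74.8 to 80.8) of the 712 wild-type promoter peaks without CTCF and 37.8% (37 to 38.6) of the 13647 distal peaks at CTCF were lost. The difference between the genetic backgrounds was not tested.

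The 8 strongest lost promoter peaks without CTCF included genes of translation, RNA processing and DNA damage checkpoints, and also neural genes. The peak at EIF4A2, a helicase of translation initiation (chr3:186500899-186501463, 5′ UTR), had a fold enrichment of 8.70, with 41 reads at the summit against a background of 3.83. SMC1 was called there in wild-type cells at 4.74-fold and in ΔSCC4 cells at 4.37-fold, so this peak was missing from the ΔWAPL/ΔSCC4 list alone. The peak at CNP, which encodes a phosphodiesterase of myelin, had 7.58-fold enrichment in ΔWAPL cells and was not called in the other 3 SMC1 lists. LSM4, a component of the U6 small nuclear ribonucleoprotein, had 8.94-fold enrichment 231 bp upstream of its start and, though without CTCF in ΔWAPL cells, a wild-type CTCF peak of 4.16-fold. HUS1, a subunit of a DNA damage checkpoint clamp, had 9.24-fold enrichment in ΔWAPL and 4.68-fold in ΔSCC4 cells. MPHOSPH10, a component of the U3 small nucleolar ribonucleoprotein, had 9.13-fold enrichment. ACSF3, a mitochondrial acyl-CoA synthetase, had 8.81-fold enrichment in ΔWAPL and 4.96-fold in ΔSCC4 cells. The remaining peaks of the strongest 8 lay at DPY19L4, with 9.04-fold enrichment in ΔWAPL and 5.54-fold in ΔSCC4 cells, and at SEMA6A. The peak of SEMA6A, an axon guidance protein, stood on a high background of 14.1 reads. It was enriched 4.56-fold in ΔWAPL and 3.62-fold in wild-type cells. Except for SEMA6A, these lost peaks had between 33 and 43 summit reads.

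The strongest kept promoters without CTCF were stronger in ΔWAPL cells than any of these by −log10 q. At TOP3B, a DNA and RNA topoisomerase, the fold enrichment of 15.2 in ΔWAPL cells compared with 9.84 after loss of SCC4 as well and with 9.63 in wild-type cells, and ΔSCC4 cells had no peak. At ALKBH3, a demethylase that repairs alkylated DNA, it was 15.6, 9.48 and 4.85 in the same order, with 4.47 in ΔSCC4 cells. At STX18, a syntaxin of the endoplasmic reticulum, it was 13.7, 5.08 and 7.05, with 6.59 in ΔSCC4 cells, and at NCAM2, a neural cell adhesion protein, 9.55, 6.89 and 4.70, with 4.56. In these 4 genes the ΔWAPL value was the highest of the 4 genotypes. The peaks were picked by their −log10 q in ΔWAPL cells, which favours this order. At the remaining peak of the strongest 5, by the unnamed gene ENSG00000249483, ΔWAPL cells again had the highest value, 14.3, and the other genotypes had between 8.72 and 9.49.

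Among lost sites at CTCF, the strongest lay by GIPC1, which encodes an adaptor protein with a PDZ domain (chr19:14590774-14591285). SMC1 was enriched 11.3-fold in ΔWAPL and 5.86-fold in wild-type cells there, whereas CTCF was enriched between 17.8-fold and 21.0-fold in all 4 genotypes. At PIP5K1C, a phosphoinositide kinase, SMC1 was enriched 11.7-fold and 7.86-fold in the same lists, with CTCF between 17.9-fold and 22.6-fold. At ELL, an elongation factor of RNA polymerase II, SMC1 was enriched 11.3-fold and 5.50-fold, with CTCF between 19.7-fold and 23.3-fold. At none of these 3 sites was SMC1 called in either genotype without SCC4. The peaks by MTUS2 and in CRMP1 showed the same order, with 12.8-fold and 10.7-fold enrichment in ΔWAPL and 6.85-fold and 5.47-fold in wild-type cells. The peaks at TXLNG, ERVK13-1 and DDX11L16 were called in ΔWAPL cells alone, and DDX11L16, with 16.2-fold enrichment, lay within the first 61231 bp of chromosome 16. All these peaks were picked by their −log10 q in ΔWAPL cells, which favours higher values there.

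The strongest kept sites at CTCF held SMC1 in all 4 genotypes. At PSMD6, a proteasome subunit, SMC1 was enriched 20.7-fold in ΔWAPL and 14.1-fold in ΔWAPL/ΔSCC4 cells, compared with 13.5-fold in wild-type and 9.63-fold in ΔSCC4 cells. At LINGO1, a neuronal receptor protein, the values were 16.8, 15.2, 11.6 and 11 in this order, and at FSIP2, a protein of the sperm tail, 17.6, 18.9, 19.1 and 16.5. The other 2 lay by MIR5708, with 20.1-fold enrichment in ΔWAPL/ΔSCC4 cells, and by RNU6-1, with 13.9-fold. These peaks had between 201 and 225 summit reads in ΔWAPL cells, compared with 41 to 62 at the 8 strongest lost CTCF sites.

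Lost distal sites without CTCF were few and weak. The strongest, by IGKV1OR-3 (chr9:70402978-70403332), had 11.2-fold enrichment from 28 reads, and those in introns of CCDC33 and of the glutamate receptor gene GRIK3 had 7.35-fold and 8.99-fold enrichment. The other 2 lay by ENSG00000230121, with 6.47-fold enrichment, and in the coding exon of C2CD4A, with 5.39-fold. None of the 5 was called in another SMC1 list, and that in GRIK3 lay at a wild-type CTCF peak of 6.06-fold.

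Gene part was examined next, with the summit assigned to coding sequence, untranslated region, other exon, intron or intergenic DNA. Untranslated 5′ exons and coding sequence held the highest lost shares. In coding sequence 883 of 1622 summits were lost, or 54.4% (52.0 to 56.8), and in 5′ UTRs 1602 of 2524, or 63.5% (61.6 to 65.3). In noncoding exons it was 37.5% (35.4 to 39.6) of 2016. In introns the share was 29.4% (28.7 to 30.1) of 15585, in 3′ UTRs 28.5% (25.3 to 32.0) of 708 and in intergenic DNA 23.1% (22.4 to 23.9) of 11497. Within the class of promoters without CTCF the shares lay closer together, at 83.5% in coding sequence, 79.0% in 5′ UTRs, 78.9% in introns and 74.5% in intergenic DNA.

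A smaller difference by gene part was present at CTCF as well. Of the promoter peaks at CTCF, 35.3% (31.2 to 39.7) were lost in coding sequence and 18.8% (17.0 to 20.9) in intergenic DNA, and of the distal peaks at CTCF 27.7% (23.7 to 32.1) and 16.5% (15.8 to 17.3). At equal strength, 31.8% of the 910 CTCF sites in coding sequence and 17.3% of intergenic CTCF sites were lost. GC content moved with this difference, with a median of 58.6% in coding sequence and 46.7% in intergenic DNA at CTCF. Its part in the difference was not tested.

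**Figure D2:**
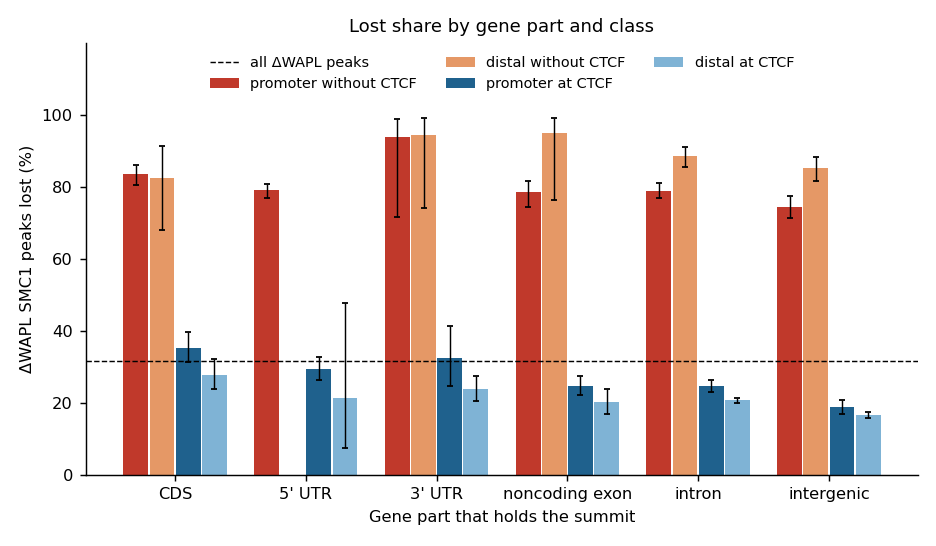
Share of ΔWAPL SMC1 peaks lost (percent, y axis) by the gene part that held the summit (x axis) and by class (colours); bars are drawn for 10 or more peaks, error bars are 95% Wilson intervals and the dashed line marks the 31.5% of all ΔWAPL peaks. Classes without CTCF stood above the line in each part shown, and classes at CTCF lay highest in coding sequence, at 35.3% and 27.7%, and in 3′ UTRs for promoters, at 32.5%.

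At the level of genes, 8817 protein-coding genes had a promoter peak in ΔWAPL cells and 4912 in ΔWAPL/ΔSCC4 cells. A promoter peak was present in ΔWAPL and absent in ΔWAPL/ΔSCC4 cells for 4211 genes, and the reverse was found for 306. Among peaks, 52.8% of the 9756 ΔWAPL promoter peaks of protein-coding genes were lost. Of all ΔWAPL/ΔSCC4 promoter peaks, 9.74% were new. Of the 5101 genes with a promoter peak without CTCF, 3967 lost each such peak, beside 78.9% of such peaks. The gene counts are not independent of these peak shares. Where protein-coding starts on both strands lay within 1 kb, as at bidirectional promoters, 84.3% (81.3 to 86.8) of 667 peaks without CTCF were lost, and 78.1% (76.8 to 79.3) of 4254 were lost where starts lay on 1 strand. Lost and kept promoter peaks stood at similar places, with the summit a median of 40 bp downstream of the start in lost and 16 bp in kept peaks.

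Gene families were then read against the 78.9% of promoter peaks without CTCF that were lost over all protein-coding genes. Among families with over 10 such peaks, those of translation, histones and replication had the highest shares. All 31 such peaks at translation initiation and elongation factors were lost (89.0 to 100), with EIF4A2 and EIF1AD the strongest. Their median fold enrichment, 4.03, was below the 4.43 of all protein-coding promoters without CTCF, as were those of histone and replication genes, at 4.15 and 4.21, and weaker peaks were lost more often in general. All 13 were lost at replication-dependent histone genes (77.2 to 100), the strongest at the gene pairs H2AC25/H2BC26 and H2AC20/H2AC21. At aminoacyl-tRNA synthetases 15 of 16 were lost, including GARS1 and NARS1, which charge tRNAs with glycine and asparagine, and LARS2, the mitochondrial leucine enzyme, was kept with 7.24-fold enrichment in ΔWAPL and 6.25-fold in ΔWAPL/ΔSCC4 cells. At DNA replication genes 21 of 23 were lost, among them RFC4, a clamp loader subunit, and MCM8, a helicase. POLE2 and RFC2 kept their peaks, at 5.93-fold and 4.06-fold in ΔWAPL/ΔSCC4 cells.

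Most other families stood near the background. Of the peaks without CTCF, 21 of 24 were lost at cytosolic ribosomal proteins, 27 of 31 at spliceosome genes, 18 of 22 at proteasome genes, 29 of 37 at respiratory chain genes, 32 of 40 at chaperones, 28 of 36 at RNA polymerase and Mediator genes and 95 of 118 at zinc-finger genes. Small families were 6 of 6 lost at small nucleolar RNA host genes and 5 of 7 at HOX genes. RPSA and RPS27 had the strongest lost ribosomal peaks, at 7.25-fold and 5.06-fold, and RPS27L and RPL15 the strongest kept ones, at 5.61-fold and 4.67-fold in ΔWAPL and 3.79-fold and 4.11-fold in ΔWAPL/ΔSCC4 cells. Mitochondrial ribosomal proteins lost 28 of 40, or 70.0% (54.6 to 81.9). Their kept peaks included MRPS31, with 11.5-fold enrichment in ΔWAPL and 4.13-fold in ΔWAPL/ΔSCC4 cells, and MRPL21, with 10.7-fold and 7.21-fold. The intervals of all families but the translation factors held the background value. Clustered protocadherins, a family of neuronal adhesion genes with CTCF sites at their promoters, had 10 promoter peaks, all at CTCF, of which 3 were lost.

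**Figure D3:**
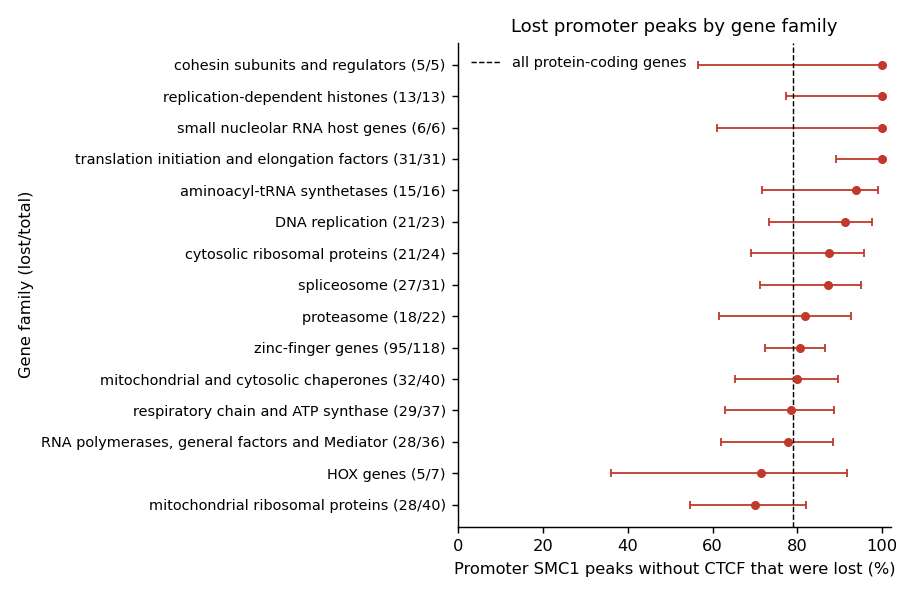
Share of ΔWAPL promoter SMC1 peaks without CTCF that were lost (percent, x axis) for 15 gene families (y axis, with lost and total numbers); error bars are 95% Wilson intervals and the dashed line is the 78.9% of all protein-coding genes. Translation factors, with 31 of 31, are the family whose interval lies above the line.

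The genes of cohesin and its regulators were described in the same way. All 5 of their promoter peaks without CTCF were lost (56.6 to 100), against 78.9% of all protein-coding genes, and 2 of 11 at CTCF, against 26.2%. Neither count stood apart from these shares. The lost peaks without CTCF lay at RAD21, the kleisin subunit, with 7.18-fold enrichment, at HDAC8, the SMC3 deacetylase, with 5.74-fold, at MAU2 with 4.16-fold, at the loader partner gene NIPBL with 3.63-fold and at CTCF itself with 3.47-fold. RAD21, NIPBL and STAG2 each had 1 new peak at CTCF, that of RAD21 with 5.08-fold enrichment. PDS5A, PDS5B and STAG1 kept broad promoter peaks, and the strongest of STAG1 was enriched 9.86-fold in ΔWAPL and 8.39-fold in ΔWAPL/ΔSCC4 cells. MAU2 kept its second peak, an intronic CTCF site with 11.3-fold and 8.47-fold enrichment. WAPL and SMC1A had no SMC1 peak in any of the 4 genotypes.

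Over whole gene bodies, the neuronal catenin gene CTNNA2 had the most lost summits, 9 of 15 in 1464 kb, with no new summit. CADPS2, a regulator of vesicle release, lost all 7 of its summits and TRPS1, a repressor with GATA-type fingers, all 6. DAB2IP, a Ras GTPase-activating protein, and RERE, an atrophin family corepressor, each lost 6 of 8 and had 2 new ones. ENSG00000285708 and CSMD1 lost 6 of 14 and 6 of 13, and ENSG00000260729 lost 5 of 7. All genes named here were picked for their number of lost summits, and 31.5% of all ΔWAPL peaks were lost. Complete loss was common in genes with few sites, as 3103 of the 10261 genes with a ΔWAPL summit lost each of them, 78 of which had 3 or more. The lost share was 54.7% (52.0 to 57.5) in genes under 10 kb and 27.5% (26.3 to 28.7) in the longest genes, of 0.2 Mb and over. Neither class nor strength was matched between these genes. The share was 78.9% in promoters without CTCF and 19.2% in distal sites at CTCF, and the part of class in the difference was not tested.

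Peak width separated the sets as well. Lost peaks had a median width of 284 bp in ΔWAPL cells, with an upper quartile of 364 bp, and kept peaks had a lower quartile of 321 bp. New peaks had a median of 280 bp. Divided into 5 equal groups by width, 64.1% (62.9 to 65.2) of the narrowest and 15.2% (14.4 to 16.1) of the widest ΔWAPL peaks were lost. Width and strength are linked in called peaks, so this is not a separate result from the order by −log10 q. Kept promoters without CTCF had a median width of 451 bp in ΔWAPL and 315 bp in ΔWAPL/ΔSCC4 cells, and 73.6% of these 1105 peaks were narrower in the latter. Kept distal sites at CTCF had medians of 379 bp and 385 bp, and 48.3% were narrower. The shortest called interval was 208 bp in the ΔWAPL and 227 bp in the ΔWAPL/ΔSCC4 list, and its part in these widths was not tested.

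The height of kept peaks was compared after dividing summit reads by the lowest background of each list, taken as its average pileup. This average is the depth times the fragment length. The depth was 7.66 reads per kb in the ΔWAPL and 6.79 in the ΔWAPL/ΔSCC4 library, and the fragment length 208 bp and 227 bp. Scaling by reads per kb alone would give higher SMC1 ratios. The ratio of ΔWAPL/ΔSCC4 to ΔWAPL had a median of 0.795 over all kept peaks. It was 0.775 at promoters without CTCF, 0.678 at promoters with CTCF and 0.834 at distal sites at CTCF. Promoters with CTCF thus had the lowest ratio although most of these sites were kept. Except at promoters without CTCF, the ratio was lower at higher GC content. At those promoters it was 0.729 at 40 to 50% GC, 0.738 at 50 to 60% and 0.795 at 60% and over. For distal sites at CTCF it was 1.03 under 40% GC, 0.861 at 40 to 50%, 0.646 at 50 to 60% and 0.592 at 60% and over.

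The background around the same distal sites moved in the same direction. The local background used by the peak caller, also scaled to the average, had ratios of 1.04, 0.929, 0.761 and 0.678 in these GC classes. In ΔWAPL cells it was 1.48 times the average at sites under 40% GC and 2.79 times at 60% and over, and in ΔWAPL/ΔSCC4 cells 1.55 and 1.88 times. After division by the background ratio, the median ratio of the summits was 0.990, 0.923, 0.856 and 0.869. CTCF summit reads at the sites with a CTCF peak in both genotypes had ratios of 1.05, 1.12, 1.18 and 1.21, the opposite direction. Whether the shift with GC content belongs to the cells or to the 2 SMC1 libraries cannot be told apart with 1 library each.

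**Figure D4:**
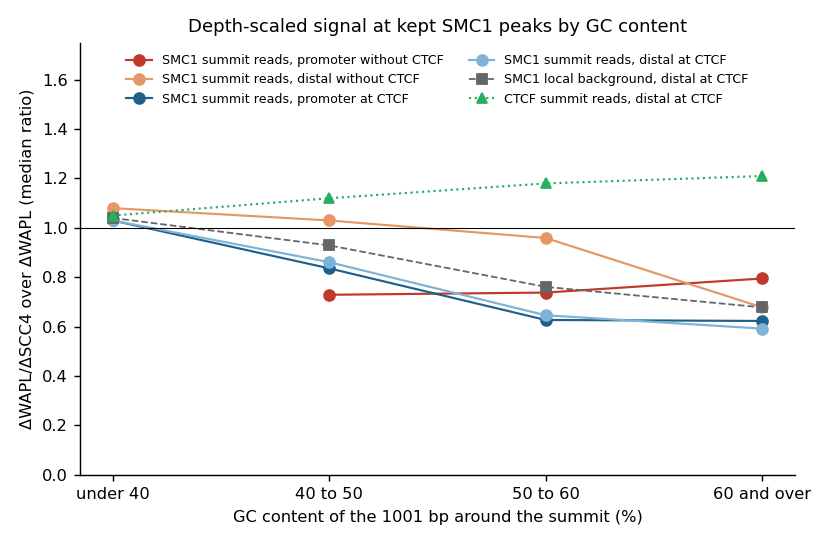
Median ratio of depth-scaled signal in ΔWAPL/ΔSCC4 over ΔWAPL cells (y axis) at kept SMC1 peaks by GC content of the surrounding 1 kb (percent, x axis), for SMC1 summit reads in 4 classes and, at distal CTCF sites, for the local SMC1 background and CTCF summit reads; groups under 10 peaks are left out. At distal CTCF sites the SMC1 ratio was 1.03 in the lowest and 0.592 in the highest GC class, the background ratio 1.04 and 0.678, and the CTCF ratio 1.05 and 1.21. At promoters without CTCF the SMC1 ratio was 0.729 at 40 to 50% GC and 0.795 at 60% and over.

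Spacing was described by the distance between neighbouring summits. The median gap was 37.5 kb in the ΔWAPL list, 57.4 kb in that of ΔWAPL/ΔSCC4 cells, and a lost summit lay a median of 22.7 kb from the nearest kept one. Lost peaks were more frequent in crowded stretches. The lost share was 40.5% (39.4 to 41.6) for peaks with a neighbour under 5 kb away and 23.9% (22.4 to 25.6) for those with none within 100 kb. Within classes the range was narrower, from 23.5% to 15.9% at distal CTCF sites and from 81.7% to 69.9% at promoters without CTCF. A peak whose nearest neighbour was lost was itself lost in 34.8% (34.0 to 35.7) of cases, compared with 29.8% (29.3 to 30.4) where the neighbour was kept. Within distal sites at CTCF these shares were 20.0% (19.1 to 21) and 18.8% (18.2 to 19.4), and within promoters without CTCF 81.3% and 77.4%.

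The lost peaks formed 6996 uninterrupted runs, of which 4635 were of 1 peak and 35 of 6 or more, and 28.0% of lost peaks lay in runs of 3 or more. Runs also arise without clustering when 31.5% of a list is lost, and a difference from that case was not tested. The longest run, of 14 peaks, lay at chr7:66057082-66843582 around KCTD7, RABGEF1, SBDS and TYW1, and 6 of its peaks were at CTCF. The next, of 11 peaks, lay at chr19:49503038-49617863 from RUVBL2 to LIN7B, with 10 at CTCF, so it was made mostly of CTCF sites. Runs of 9 lay at chr16:412131-620404 around NME4, DECR2 and RAB11FIP3, and at chr16:2473053-2732651 from CCNF to KCTD5.

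Over chromosomes 1 to 22 and X, the lost share lay between 27.5% and 37.5%. It was highest on chromosome 16, at 37.5% (34.7 to 40.4), chromosome 19, at 36.8% (34.1 to 39.7), and chromosome 22, at 35.8% (32.2 to 39.5), and lowest on X, at 27.5% (25.2 to 30). New peaks were least frequent on chromosome 22, with 5.90% (4.05 to 8.50) of its ΔWAPL/ΔSCC4 peaks, chromosome 15, with 7.50% (6.01 to 9.31), and chromosome 19, with 7.77% (6.10 to 9.86). They were most frequent on 4 and 13, with 18.4% (16.5 to 20.5) and 20.3% (17.5 to 23.4). GC content and background differed between these chromosomes as well. The median GC content around ΔWAPL peaks was 56.4% on chromosome 22 and 56.3% on 19, and 43.8% on 4 and 45.0% on 13, and the background ratio of ΔWAPL/ΔSCC4 to ΔWAPL was 0.815, 0.782, 0.965 and 0.939 in the same order. Chromosome 15 had a GC content of 51.3%, above chromosome 4. The intervals of their lost shares overlapped, at 28.3% (25.9 to 30.9) on chromosome 15 and 30.1% (28.0 to 32.4) on chromosome 4. Of the 1274 ΔWAPL peaks on chromosome 15, 650 lay in a segment of higher background that is described below. The part of GC content and background in the chromosome shares was not tested.

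**Figure D5:**
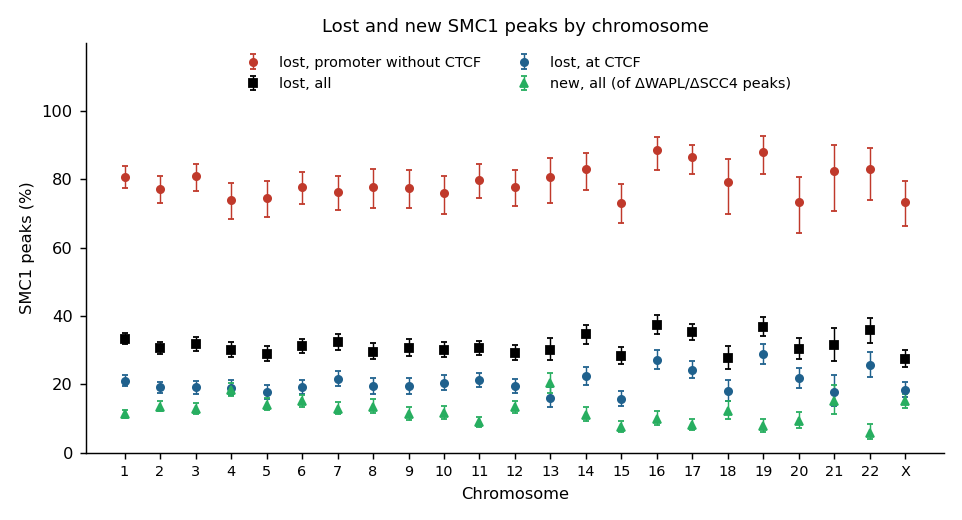
Share of SMC1 peaks (percent, y axis) that were lost (of ΔWAPL peaks: all, at CTCF, and promoters without CTCF) or new (of ΔWAPL/ΔSCC4 peaks) on each chromosome (x axis); bars are 95% Wilson intervals. Losses over all peaks were between 27.5% on X and 37.5% on chromosome 16, and new peaks between 5.90% on 22 and 20.3% on 13.

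Chromosome 15 stood apart in depth. HAP1 cells are known to carry a second copy of a segment of this chromosome, inserted into chromosome 19. In the lists, the median background between 60 and 90 Mb was 3.43 times the average in the ΔWAPL library and 3.11 times in the other, compared with 1.76 and 1.69 over the rest of the chromosome. Peaks in the segment had a median of 38.0 summit reads in ΔWAPL cells, against 23 outside it. At CTCF, 14% (11.3 to 17.3) of 506 peaks inside the segment and 17.6% (14.5 to 21.2) of 500 outside it were lost, and at promoters without CTCF 68.9% (60.1 to 76.5) of 119 and 78.1% (69.3 to 84.9) of 105. The intervals overlapped in both classes. Of the peaks named here, the kept sites of LINGO1, RNU6-1 and RPS27L and the lost sites of CCDC33 and C2CD4A lie in this segment.

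The last comparison concerned the sites that appeared when SCC4 was lost. Taken over all classes, new sites lay in DNA of lower GC content than kept or lost sites. Of the 3295 new peaks, 73.9% were distal at CTCF, close to the 74.1% of kept ΔWAPL/ΔSCC4 peaks, and 9.38% were promoters at CTCF, against 20.8% of kept peaks. Of all new peaks, 78.5% (77.0 to 79.9) overlapped a CTCF peak in ΔWAPL cells, where CTCF was thus bound without a called SMC1 peak. The median GC content was 40.8% at new, 47.4% at kept and 55.5% at lost sites, and for distal sites at CTCF it was 39.2%, 44.8% and 45.5%. At promoters without CTCF it was 64.5%, 65.0% and 63.9% in the same order. The SMC1 ratio at kept distal CTCF sites was also higher at low GC content, 1.03 under 40% and 0.592 at 60% and over. The part of this shift in the GC content and location of new sites was not tested. New peaks made up 19.3% (18.3 to 20.5) of ΔWAPL/ΔSCC4 peaks in 1-Mb bins with 2 or fewer protein-coding starts and 6.89% (6.09 to 7.77) in bins with over 20. They were weak, with a median fold enrichment of 4.93, and they lay a median of 27.4 kb from the nearest ΔWAPL peak. A wild-type SMC1 peak overlapped 15.4% (14.2 to 16.7) of them.

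The strongest new peak, by the pseudogene LIN28AP1 (chr2:184159747-184160146), had 10.8-fold enrichment. CTCF there was enriched 4.55-fold in ΔWAPL and 20.1-fold in ΔWAPL/ΔSCC4 cells. It was enriched 8.13-fold in wild-type and 5.41-fold in ΔSCC4 cells, the other direction, with 1 library each. The second, by ENSG00000289475 on chromosome 13, had 11.1-fold enrichment and was called in wild-type cells at 9.34-fold and in ΔSCC4 cells at 9.62-fold. ΔWAPL was thus the genotype without a peak at this site, and its CTCF value, 7.79-fold, was the lowest of the 4 genotypes. The peaks by GRPEL2P1, ENSG00000287284 and P3H2, a collagen prolyl hydroxylase, had 10.5-fold, 9.16-fold and 8.21-fold enrichment, were called in no other SMC1 list, and lay at CTCF peaks in all 4 genotypes. The peak in SMC4, a condensin subunit whose body overlaps TRIM59 there (chr3:160150913-160151176), was different in kind, since it lay in coding sequence with 30.8% GC, had 10.2-fold enrichment from 34 reads, and overlapped neither a CTCF peak nor another SMC1 peak in any genotype.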

How the data were processed

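SMC1 chromatin immunoprecipitation followed by sequencing was compared between ΔWAPL and ΔWAPL/ΔSCC4 HAP1 cells, with the CTCF, IgG and remaining SMC1 lists as further readouts. Samples were grouped by their titles, 1 library per group. Single-end reads were mapped to hg19 with Bowtie2 and peaks were called per library with MACS2 (2.1.1) with IgG named as the control, and the calling threshold is not given in the sources used here. The fold enrichment deposited by the authors is the ratio of summit reads to local background, each with 1 read added, and the −log10 p and −log10 q deposited by the authors are the caller's Poisson values.

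Summit reads and background were recovered by solving the fold enrichment and −log10 p together. The average depth came from the lowest background and the shortest interval of each list. Above the lowest value, 100% of recovered backgrounds below 10 reads were whole reads in 10 kb (within 0.05) scaled to the library's own fragment length, with no sign of the scaling factor of a second library. The fold enrichments may thus be over the library's own local reads rather than over the IgG control that the methods name, and the sources do not settle which. The lowest −log10 q of the ΔWAPL list was 1.42 and that of the ΔWAPL/ΔSCC4 list 1.37. Gene parts and starts came from GENCODE release 44 on GRCh37, overlaps from bedtools (2.31.1), and sequence from the reference genome through pysam (0.24.0), with pandas (2.3.3), NumPy (2.4.6), SciPy (1.17.1) and matplotlib (3.10.9). The CTCF motif was learned from 1000 wild-type CTCF peaks on odd chromosomes, with a threshold that 5% of flanking windows pass. The functions were tested on simulated data.

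Named peaks were the strongest by −log10 q in each set on chromosomes 1 to 22 and X, outside IgG peaks: 8 lost promoter, 8 lost CTCF, 5 lost distal, 5 kept promoter, 5 kept CTCF and 6 new peaks. The 8 genes with most lost summits, cohesin genes and NCAM2, and the 2 strongest lost and kept peaks per family were also named. Sites, lists and rules were chosen with earlier results of these data known. Matching on strength and GC content or on gene part, and the chromosome 15 segment, were added after the data were seen. The alternatives tried numbered 12, on thresholds, overlap, depth, list length, IgG, chromosomes and merging.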

Additional observations from a re-analysis of the deposited data

Results flagged for a closer look

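The median width of called SMC1 peaks differed in opposite directions with SCC4 loss in wild-type and ΔWAPL cells, by 1 bp in the former. It was 290 bp in wild-type and 289 bp in ΔSCC4 cells, and 361 bp in ΔWAPL and 371 bp in ΔWAPL/ΔSCC4 cells. The shortest called interval also differed between the libraries, at 208 bp in the ΔWAPL and 227 bp in the ΔWAPL/ΔSCC4 list. The lists hold different peaks, and kept peaks matched across the ΔWAPL and ΔWAPL/ΔSCC4 lists had a median width difference of -8.00 bp, with 52.8% narrower in ΔWAPL/ΔSCC4 cells. With 1 library per genotype the difference was not tested.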

How the results depend on the processing

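The lost share was higher in promoters without CTCF than at CTCF under all 12 alternatives. Removing peaks at IgG peaks, keeping chromosomes 1 to 22 and X, and merging intervals closer than 500 bp left both shares nearly as they were and the counts within 1.5 times. In the following, the share lost at CTCF is given before that of promoters without CTCF. It was 23.2% and 85.4% with −log10 q of at least 5 in both lists, 33.7% and 90.0% with at least 10 (6642 lost, 1905 new), and 24.6% and 87.1% with fold enrichment of at least 5. With −log10 q of at least 5 in the source list alone it was 17.3% and 71.0% (6933 lost, 2035 new). With summits within 250 bp it was 21.0% and 81.8%, with a peak of the other list within 1000 bp 19.4% and 69.5%, and an overlap of 50% of either peak gave 81.2% for promoters. With equal numbers of the strongest peaks it was 15.6% and 66.4%, and lost and new peaks then numbered 5489 and 5452. Scaling the deeper library to the shallower, together with a −log10 p minimum of 8 in both lists, gave 7051 lost peaks, 21.6% and 82.9%, from 25913 ΔWAPL peaks.

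Over all alternatives the lost share lay between 20.7% and 35.8% and the new share between 8.89% and 20.5%. With lists of equal length, lost and new peaks are nearly equal in number by construction. A lost peak is a peak that was not called, and the ΔWAPL library was 1.13 times as deep. No paired analysis was possible because each genotype had 1 SMC1 library and no result came from a test.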
